A study of Homo sapiens with 24 samples.

Results

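Classical cadherins are the calcium-dependent adhesion receptors of adherens junctions. Their transcripts were followed here through 6 genes chosen by symbol: CDH1 (E-cadherin), CDH3 (P-cadherin), CDH2 (N-cadherin), CDH4 (R-cadherin), CDH11 (OB-cadherin, a type II cadherin) and CDH13 (T-cadherin). These are 6 of the 38849 genes in the deposited normalized count table, and all 6 had a mean of at least 10 over the libraries, the minimum for testing. CDH13 is a member by symbol and by its extracellular domains, but it is held to the membrane by a lipid anchor and lacks the cytoplasmic tail of the classical family. The cells were HMLE, an immortalized human mammary epithelial line, carrying either LacZ, the control transgene, or RBMS3, an RNA-binding protein that is over-expressed. Cells of both lines were treated with actinomycin D at 10 µg/mL, which blocks transcription, and RNA was taken at 0, 90, 180 and 360 min. Each of the 8 combinations of line and time has 3 libraries made with QuantSeq, which reads the 3′ ends of polyadenylated transcripts, and the series asks whose transcript stability RBMS3 controls. Whether the libraries of a group come from separate cultures is not in the labels. The p-values therefore reflect library-to-library spread only, which may be technical.

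The extracellular domains of a classical cadherin bind a cadherin on the neighbouring cell, while the tail binds p120 catenin (CTNND1) and either β-catenin (CTNNB1) or plakoglobin (JUP), which reach actin through α-catenin (CTNNA1). E-cadherin and P-cadherin are the cadherins of mammary luminal and basal epithelium. N-cadherin and R-cadherin are best known from neural and mesenchymal tissue, and the exchange of E-cadherin for N-cadherin is a textbook mark of the epithelial-mesenchymal transition. Repressors of the ZEB, SNAI and TWIST families act on the CDH1 gene.

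Because the assay counts 3′ ends and RBMS3 belongs to a family that binds AU-rich RNA, transcript ends and AU-rich stretches are shown first. They are those of CDH1, CDH2, CDH3 and CDH4, the 4 genes whose normalized counts separated the lines at all 4 times. They are reference sequence from GENCODE 29 on GRCh38, each 29 bases, 5′ to 3′ on the transcript's strand, from the transcript that took most of the gene's reads. CDH1-212 took 99.2% of CDH1 reads, CDH2-201 took 100% of CDH2 reads, and CDH3-201 took 99.0% of CDH3 reads. The first 4 are the annotated last bases, with the polyadenylation signal (AATAAA or ATTAAA) in capitals.
CDH1 end, chr16:68835513-68835541, plus strand: aattttATTAAAcaattttgttaaaccat
CDH2 end, chr18:27950966-27950994, minus strand: tctgAATAAAatgctaattttggatctgg
CDH3 end, chr16:68700267-68700295, plus strand: gttgaAATAAAcatttccttccatgagga
CDH4 end, chr20:61940589-61940617, plus strand: gagaatgAATAAAgtcccccttttccgta
CDH1 has the ATTAAA form and the other 3 have AATAAA.

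The next 3 lie within the 3′ UTR, with ATATA or ATTTA in capitals, letters searched on the sense strand with overlapping copies counted.
CDH1 AU-rich stretch, chr16:68835362-68835390, plus strand: aagctatatcgaATATAgttctgtgtaga
CDH2 AU-rich stretch, chr18:27951008-27951036, minus strand: ttgtgtaccagaATATAaatgatacacct
CDH3 AU-rich stretch, chr16:68699909-68699937, plus strand: gtaacagctaccATTTAttcagtactttt
No such stretch is shown for CDH4, whose 3′ UTR of 3674 bases held neither motif. ATTTA occurred 3 times in the 2042 bases of CDH1, once in the 1187 of CDH2 and 3 times in the 1895 of CDH3. It occurred 14 times in the 3850 bases of CDH11 and 11 times in the 5610 of CDH13. Per kb these are 1.47, 0.842, 1.58, 3.64 and 1.96 copies, against a median of 1.87 over the 8809 genes with a 3′ UTR of at least 300 bases. ATATA occurred at 1.47 per kb in CDH1, 0.842 in CDH2, 0 in CDH3, 2.86 in CDH11 and 2.14 in CDH13, against a median of 1.12. In the last 300 bases, which 49.7% of those genes fill with at least 1 ATTTA, none of the 6 cadherins had it. ATATA was there in CDH1 and CDH2 and in 35.9% of the genes. The letter matches are a description and no evidence of binding. The transcript lengths in the deposited files equal GENCODE 29 for CDH1-212 (4878 bases) and differ for the other 5, for example 4016 against 4332 bases for CDH2-201, so the authors' ends may lie elsewhere.

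The libraries held 4426445 to 9856338 estimated reads. The introduced gene separated the lines as labelled, with RBMS3 at 27.6 to 165 normalized counts in the 12 LacZ libraries and 174 to 358 in the 12 RBMS3 libraries. Within a group the libraries correlated at 0.937 or more across genes, except at LacZ 0 min, where the lowest correlation was 0.909. Of the 24 transcript files, 12 carry a name that conflicts with the sample they are attached to. Each file reproduced 95.6% to 96.1% of the genes of the table column that bears its own name and at most 1.07% of any other column, so the table's columns were used and each file was read with its column. The table's values are reads divided by the mean length of the transcripts they were assigned to, and by a size factor. Because the assay counts transcript ends, the reads of a transcript need not grow with its length. Division by length can then shift a gene's table value when its reads are assigned to shorter or longer transcripts. Reads were therefore also tested directly, and values from reads are given beside those from the table. Where table and reads differ, as for CDH11, CDH13 and the fall of CDH3 in RBMS3 cells, the values from reads do not carry this shift.

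The mammary epithelial marker list of 10 genes summed to 24558 to 32558 normalized counts in the LacZ libraries and 6792 to 16552 in the RBMS3 libraries. KRT19 was at 0 in every RBMS3 library, but its mean over all libraries was under 10 and it was not tested. The largest differences at 0 min were in EPCAM (1716 in LacZ against 0.707 in RBMS3 cells) and TP63 (247 against 3.28). Both passed the minimum mean through LacZ cells. By limma 6 of the 9 tested genes of the list were lower and 1 higher at 0 min, against 18.9% and 18.6% of all genes. At each later time 9 of 9 were lower, against 15.0%, 16.8% and 17.7% of all genes. The gene higher at 0 min was KRT14, a basal keratin named after its values were seen, at 1.26 (limma adjusted p = 2.4e-09). The basal keratins KRT5 and KRT17 were at 0.06 each and not called at 0 min. Leukocyte markers summed to 27.2 to 87.6 in LacZ against 16.2 to 58.1 in RBMS3 libraries. CD3E was at 0 in every library, and PTPRC in every RBMS3 library but not in every LacZ library. The 2 tested markers, CD14 and CD68, had group means of 6.88 to 38.8 and 9.34 to 38.0 normalized counts. Endothelial markers summed to 0 to 8.79 against 0 to 15.6, with CDH5 and CLDN5 at 0 in every library. Melanocyte or neural markers summed to 696 to 1062 against 705 to 1266, nearly all of it TUBB3, with SOX10 at 0. The part of the lower epithelial markers in the cadherin differences was not tested.

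**Figure D1:**
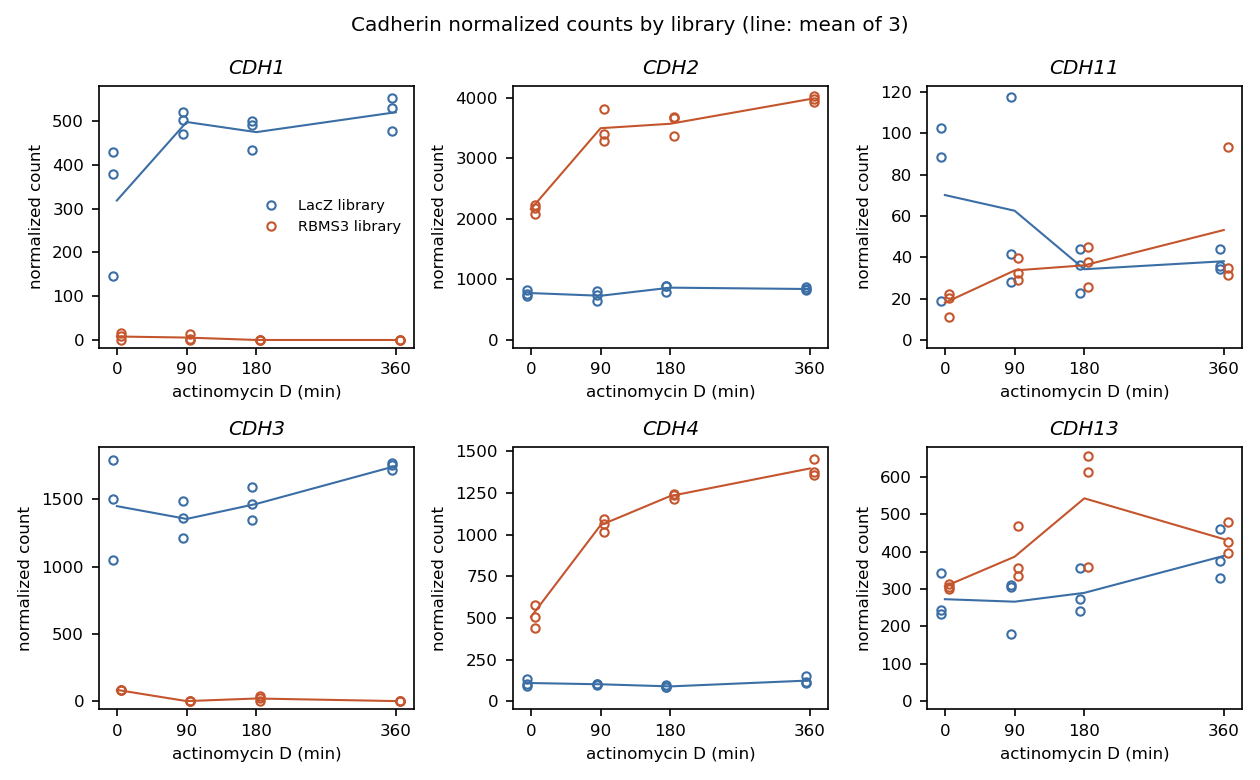
Normalized counts of the 6 cadherins (y axis of each panel) against minutes of actinomycin D (x axis), with each library a point, LacZ in blue and RBMS3 in orange, and the line through the mean of 3 libraries. CDH1 and CDH3 lie near 0 in the RBMS3 libraries, CDH2 and CDH4 lie above LacZ at each time and higher after 0 min, and the CDH11 libraries of the lines overlap.

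The 2 epithelial cadherins were lower, and the N- and R-cadherins higher, in RBMS3 cells before and after the block of transcription. By limma on log2(normalized count + 1), with p-values adjusted over 12096 genes, 5 of the 6 cadherins differed between the lines at 0 min, where 37.5% of all tested genes did (18.6% with higher and 18.9% with lower values in RBMS3). At 90 min 4 of 6 differed, against 29.8% of all genes (14.9% higher, 15.0% lower). At 180 min 5 of 6 differed, against 33.1% (16.2% higher, 16.8% lower), and at 360 min 4 of 6, against 35.2% (17.5% higher, 17.7% lower). CDH2 and CDH4 were higher and CDH1 and CDH3 lower at all 4 times. The normalized counts of the lines did not overlap for 4, 5, 5 and 4 of the 6 cadherins at the successive times, against 44.8%, 46.6%, 46.6% and 48.7% of all genes. By edgeR's quasi-likelihood test on reads, 5 of 6 differed at each time, against 39.0%, 33.5%, 35.5% and 37.4% of 14177 genes. A value in bulk RNA is a share of the library, in which fewer cells of a type and less RNA per cell cannot be told apart.

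CDH1, the E-cadherin gene, lies on chromosome 16 from 68737292 to 68835541 with 17 exons in the transcript measured. LacZ libraries held 379.6, 146 and 429.8 normalized counts at 0 min, 519.8, 471 and 503 at 90 min, 499, 434 and 490.3 at 180 min, then 478, 552 and 530.2 at 360 min. RBMS3 libraries held 8.60, 15.1 and 0 at 0 min, 0, 13.6 and 2.90 at 90 min, and 0 in all 6 libraries at 180 and 360 min. The lowest LacZ library, replicate 2 at 0 min, was still above the highest RBMS3 library. The limma difference was −5.75 ± 0.80 (SE, n = 3 against 3, adjusted p = 8.1e-06) at 0 min and −7.02 at 90 min (adjusted p = 7.5e-07), and CDH1 was called lower at 180 and 360 min as well. On reads the 0 min difference was −7.94 by edgeR (adjusted p = 5.3e-11).

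Summed over the 3 libraries, CDH1 had 1644 reads in LacZ and 6 in RBMS3 at 0 min, a level relative to library depth 266-fold higher in LacZ (95% exact binomial interval 122 to 727). At 90 min it was 571-fold higher (244 to 1761), from 2309 reads against 5. At 180 and 360 min the RBMS3 libraries held no CDH1 read, and against a floor of 3 reads in each library the level was at least 233-fold and at least 290.3-fold lower than in LacZ. These intervals and floors cover counting error only. The few RBMS3 reads were all assigned to CDH1-206, an annotated transcript of 969 bases without a coding sequence, and none to the protein-coding CDH1-212.

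CDH3, the P-cadherin gene, lies near CDH1 on chromosome 16 (68644836 to 68700295, 16 exons). LacZ libraries held 1503, 1053 and 1796 normalized counts at 0 min, 1214, 1492 and 1361 at 90 min, 1344, 1467 and 1589.9 at 180 min, then 1717, 1758 and 1771 at 360 min. RBMS3 libraries held 83.0, 86.1 and 88.8 at 0 min, 5.45, 1.71 and 0.973 at 90 min, 39.3, 1.14 and 25.6 at 180 min, then 5.73, 0.704 and 2.08 at 360 min. The lines did not overlap at any time, and within RBMS3 cells the 0 min libraries were the highest 3. The limma differences between the lines were −4.03 ± 0.70 (SE, adjusted p = 1.1e-04) at 0 min, −8.70 at 90 min (adjusted p = 4.2e-09), −6.79 at 180 min (adjusted p = 1.6e-07) and −9.06 at 360 min (adjusted p = 2.1e-09). In RPM, reads per 1000000 estimated reads of the library, LacZ cells were 66.6-fold higher at 0 min (54.0 to 83.2), 535-fold at 90 min (313 to 1006), 367-fold at 180 min (229 to 630) and 554-fold at 360 min (324 to 1041).

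Part of the remaining CDH3 reads of RBMS3 cells were assigned to a short transcript; the difference between the lines in its share was not tested. CDH3-210, an annotated transcript of 576 bases without a coding sequence, took 26.6% of CDH3 reads in RBMS3 cells at 0 min (exact binomial 95% interval 18.1 to 37.4, 88.5 estimated reads) against 1.19% in LacZ cells (0.935 to 1.501). The intervals cover counting error in the pooled reads and not the spread between libraries. In single libraries the share was 21.0% to 40.9% in RBMS3 and 0.968% to 1.53% in LacZ cells, which do not overlap. Because the table divides by transcript length, the mean length counted for CDH3 in RBMS3 libraries at 0 min, 717 to 1131 bases, raises their table value relative to libraries where it was 4202 bases. The RBMS3 libraries held 4.89, 4.87 and 3.27 RPM before the block and 1.14, 0.361 and 0.212 after 90 min. At 90 min none of 13.1 estimated reads was assigned to CDH3-210, which allows a share of up to 24.7%. At 180 min it took 30.7% of 17.3 reads.

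CDH2, the N-cadherin gene, lies on the minus strand of chromosome 18 (27950966 to 28177446, 16 exons). LacZ libraries held 823, 733 and 766 normalized counts at 0 min, 641, 737 and 812 at 90 min, 894, 799 and 898 at 180 min, then 817, 834 and 872 at 360 min. RBMS3 libraries held 2170.5, 2230.2 and 2078 at 0 min, 3395, 3281 and 3812 at 90 min, 3366, 3677 and 3665 at 180 min, then 3931, 4023 and 3974 at 360 min. Every RBMS3 library was above every LacZ library, and every RBMS3 library after 0 min was above those at 0 min. The limma differences were 1.48 ± 0.08 (SE, adjusted p = 1.2e-11) at 0 min, 2.26 at 90 min (adjusted p = 2.4e-14), 2.05 at 180 min (adjusted p = 1.3e-13) and 2.24 at 360 min (adjusted p = 2.9e-14). As ratios of RPM, RBMS3 cells were higher by 2.65, 4.75, 3.98 and 4.47 times.

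CDH4, the R-cadherin gene, lies on chromosome 20 (61252426 to 61940617, 16 exons). LacZ libraries held 134, 102 and 94.8 normalized counts at 0 min, 105, 104 and 100.1 at 90 min, 96.8, 88.8 and 85.3 at 180 min, then 114, 113 and 150.1 at 360 min. RBMS3 libraries held 504, 439.9 and 575 at 0 min, 1017, 1092 and 1062 at 90 min, 1237, 1215 and 1243 at 180 min, then 1378, 1454 and 1358 at 360 min. The groups did not overlap, and the RBMS3 libraries of each later time lay above all those of the time before. The limma differences were 2.19 ± 0.13 (SE, adjusted p = 4.1e-11) at 0 min, 3.35 at 90 min (adjusted p = 8.5e-14), 3.76 at 180 min (adjusted p = 1.2e-14) and 3.48 at 360 min (adjusted p = 4.6e-14). As ratios of RPM, RBMS3 cells were higher by 4.30, 10.1, 13.2 and 10.6 times.

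**Figure D2:**
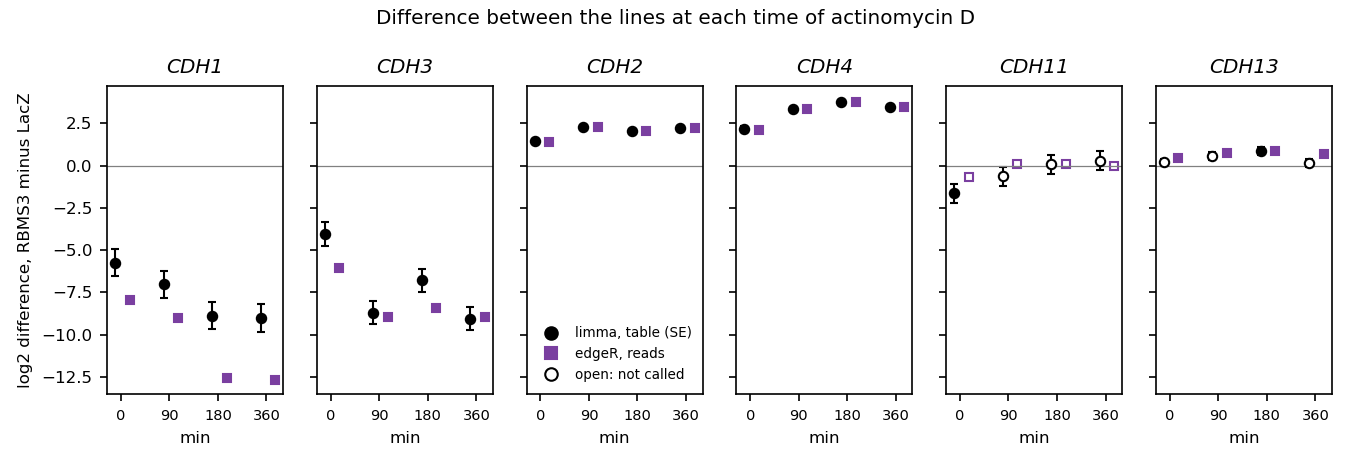
Difference between the lines (log2, RBMS3 minus LacZ, y axis) at each time in minutes (x axis) for the 6 cadherins, as black circles with SE from limma on the normalized counts and as purple squares from edgeR on reads, with open symbols where the test made no call. CDH2 and CDH4 lie above 0 and CDH1 and CDH3 below 0 at all 4 times, and the CDH11 call at 0 min (−1.64 in the table) is open on reads (−0.65).

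CDH11, found mainly in mesenchymal cells and osteoblasts, did not follow the N- and R-cadherins. LacZ libraries held 19.1, 103 and 88.6 normalized counts at 0 min and RBMS3 libraries 22.3, 11.2 and 20.5, so replicate 1 of LacZ lay among the RBMS3 libraries. The limma difference of −1.64 ± 0.57 (SE, adjusted p = 0.027) was the one call for CDH11 between the lines. On reads it was −0.65 by edgeR (adjusted p = 0.18). In RPM LacZ cells were at 3.41, 5.04 and 6.89 and RBMS3 cells at 4.09, 1.93 and 3.72, which overlap. The mean transcript length counted for CDH11 was 6063, 1649 and 2651 bases in those LacZ libraries, so the high table values of replicates 2 and 3 went with short lengths. The call was lost without either of these replicates (adjusted p = 0.137 and 0.114 by limma), and without RBMS3 replicate 2 (0.111). From 90 min the limma differences were −0.62, 0.09 and 0.30 (adjusted p = 0.45, 0.93 and 0.72).

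CDH13 regulates adhesion and binds adiponectin and lipoproteins. Its table values overlapped between the lines at 0 and 360 min, and those in RPM at no time. LacZ libraries held 46.0, 33.8 and 33.8 RPM at 0 min, 30.8, 38.9 and 41.7 at 90 min, 40.4, 38.1 and 39.6 at 180 min, then 40.9, 33.4 and 40.8 at 360 min. RBMS3 libraries held 53.1, 53.3 and 49.8 at 0 min, 64.2, 53.5 and 65.6 at 90 min, 56.4, 69.1 and 81.8 at 180 min, then 57.0, 56.2 and 62.1 at 360 min. Every RBMS3 library was above every LacZ library. By edgeR on reads the difference was 0.46 (adjusted p = 0.011), 0.76 (1.4e-04), 0.87 (2.4e-05) and 0.70 (2.8e-04) at the 4 times. By limma on the table it was 0.19 ± 0.23 (SE, adjusted p = 0.57), 0.56 (0.077), 0.87 (0.0064) and 0.17 (0.62), with a call at 180 min alone.

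CDH13 reads were shared among several transcripts, CDH13-209 with 86.1%, CDH13-203 with 6.87%, CDH13-201 with 4.17% and CDH13-210 with 2.74%. The mean length counted for the gene ran from 2313 to 4685 bases in LacZ and from 3074 to 4640 in RBMS3 libraries. In CDH2 it stayed between 3756 and 3766 bases, and in CDH4 between 6292 and 6428. For those genes the table and the reads lay close, at 0 min 1.48 by limma and 1.41 by edgeR for CDH2, and 2.19 and 2.13 for CDH4.

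**Figure D3:**
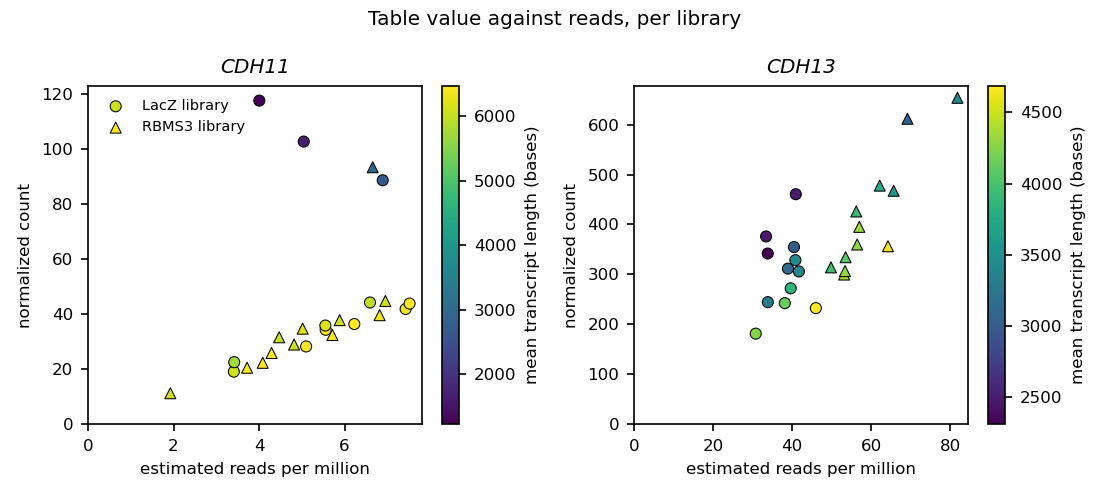
Normalized count (y axis) against estimated reads per 1000000 (RPM, x axis) for CDH11 and CDH13 in the 24 libraries, with LacZ as circles, RBMS3 as triangles and the mean transcript length in bases as color. The CDH11 libraries with the highest table values (103 and 117) have short mean lengths (1649 and 1221 bases) and 5.04 and 4.01 RPM, and for CDH13 the RBMS3 triangles all lie to the right of the LacZ circles.

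During actinomycin D none of the 6 cadherins differed from 0 min in LacZ cells by limma, where 6.18% of all genes differed at 90 min, 14.6% at 180 min and 28.5% at 360 min. The 18 differences lay between −0.75 and 0.85 on the log2 scale, 1 of them with an unadjusted p under 0.05. On reads edgeR called 0 cadherins there, against 8.18%, 17.0% and 30.2% of all genes. In RBMS3 cells 3, 5 and 4 of the 6 differed at 90, 180 and 360 min, against 14.5%, 25.9% and 37.6% of all genes. On reads edgeR called 3, 5 and 5, against 20.7%, 30.5% and 41.3%. With transcription blocked, a higher value is a larger share of the RNA that remained, as the assay does not measure the amount of RNA in a cell. All comparisons with 0 min within a line share the same 3 libraries. Whether these were cultured and handled together with the later times is not in the labels. A difference of culture or handling at 0 min and a change over time therefore cannot be told apart.

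CDH2 rose in RBMS3 cells from 2159.6 ± 76.7 (SD, n = 3) normalized counts at 0 min to 3976 ± 46.2 at 360 min. Its limma changes from 0 min were 0.69 ± 0.08 (SE, adjusted p = 7.4e-06), 0.72 (2.1e-06) and 0.88 (6.3e-08) at the 3 later times. CDH4 rose from 506 ± 67.8 to 1397 ± 50.7, by 1.07 ± 0.13 (SE, adjusted p = 1.1e-05), 1.29 (5.2e-07) and 1.47 (3.6e-08). Most of both rises was present at 90 min. Between 90 and 360 min, edgeR on the reads of the 12 libraries whose file names match their samples gave CDH4 0.38 ± 0.10 (SE, adjusted p = 0.025) and CDH2 0.16 (adjusted p = 0.20). CDH4 was the 1 cadherin called there, against 14.4% of 13320 genes, and it lost the call without any 1 of the RBMS3 libraries compared. Over the same interval limma gave CDH4 0.40 in RBMS3 and 0.27 in LacZ cells, and CDH2 0.19 and 0.21. The LacZ values were not called (adjusted p = 0.25 for CDH4 and 0.14 for CDH2). The difference between the lines over this interval was not tested.

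CDH3 fell further in RBMS3 cells. The limma changes from 0 min were −4.74 ± 0.70 (SE, adjusted p = 7.9e-05), −2.72 (0.0065) and −4.73 (2.0e-05), and on reads edgeR gave smaller ones of −2.90 (3.0e-05), −2.31 (1.4e-04) and −2.69 (2.6e-05). The reads behind these are few, 31.1, 35.4 and 22 in the libraries at 0 min and 1 to 9.41 in those after. CDH1 was called lower by limma at 180 and 360 min (−2.42 at both, adjusted p = 0.031 and 0.022), which rests on 6 reads at 0 min, and edgeR made no call (adjusted p = 0.19 and 0.16). CDH13 rose at 180 min by limma (0.77, adjusted p = 0.019), a call lost without RBMS3 replicate 1 at 0 min or without replicate 2 or 3 at 180 min (adjusted p = 0.051, 0.082 and 0.098). On reads CDH13 rose at 180 and 360 min by edgeR (0.60, adjusted p = 0.0019, and 0.46, adjusted p = 0.010). CDH11 rose on reads at 180 and 360 min (1.03, adjusted p = 0.035, and 1.02, adjusted p = 0.027 by edgeR), while limma gave 0.99 and 1.39 (adjusted p = 0.22 and 0.060). CDH11 had 14 to 58 reads in a library.

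The slope over time, fitted by limma as log2 change per hour, differed between the lines for 3 of the 6 cadherins, against 5.18% of all genes. On reads edgeR called 3 as well, against 7.27%. For CDH2 the slope was 0.03 ± 0.01 (SE) in LacZ cells, which was not called (adjusted p = 0.12), and 0.13 ± 0.01 in RBMS3 cells, a difference of 0.10 ± 0.02 (adjusted p = 0.0037). For CDH4 it was 0.03 in LacZ cells (adjusted p = 0.29) and 0.22 in RBMS3 cells, a difference of 0.18 ± 0.03 (adjusted p = 8.7e-04). For CDH3 it was 0.06 in LacZ and −0.59 in RBMS3 cells, a difference of −0.65 ± 0.16 (adjusted p = 0.018). This last call was lost without RBMS3 replicate 2 at 360 min (−0.57, adjusted p = 0.065), and on reads it was −0.38 by edgeR (adjusted p = 0.0062). The slope differences of CDH1, CDH11 and CDH13 were −0.55, 0.31 and −0.01 (adjusted p = 0.087, 0.19 and 0.93). A slope treats the change as even over time, which the values of CDH2 and CDH4, with most of their rise by 90 min, were not.

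Across the 24 libraries CDH2 and CDH4 were close to one another, with a Pearson r of 0.990 on log2(normalized count + 1). This is a description over libraries that share 2 lines and 4 times, and it carries no test. The other 4 genes most like CDH2 were MAP1B (0.991), ABLIM3 (0.985), THBS1 (0.984) and VIM (0.984), and those most like CDH4 were MAP1B (0.986), MICAL2 (0.985), ABLIM3 (0.982) and VIM (0.980). VIM encodes vimentin, the intermediate filament of mesenchymal cells, and MAP1B a microtubule-associated protein. Among the genes most like CDH1 were HMGA2 (0.980), KCNK1 (0.970), NPEPPS (0.966) and PSTPIP2 (0.964). CDH3 was most like NDRG1 (0.971), ETV6 (0.957), NPEPPS (0.9503), ARHGAP8 (0.9497) and MARVELD3 (0.949), the last a tight junction protein. CDH11 and CDH13 had lower highest values. For CDH11 these were STARD7 (0.729), ZFAND3 (0.688), TCEA1 (0.683), ITGB3BP (0.670) and HOXB7 (0.661), and for CDH13 SSRP1 (0.790), TNPO1 (0.787), CARS1 (0.782), HNRNPUL2 (0.782) and NHP2 (0.780).

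The nearest tested gene on each side of each cadherin is given here as its neighbour, and most were not adjacent. For CDH2, 24 genes lay between it and KCTD1 and 13 between it and DSC3. For CDH4 these were 17 (PPP1R3D) and 4 (TAF4). For CDH11 they were 48 (GOT2) and 14 (TK2), and for CDH13 4 (MPHOSPH6) and 2 (RN7SL134P). CDH1 and CDH3 are each other's nearest tested neighbour on the facing side, with 2 genes between them. The tested genes outside the pair were not called at any time, with ZFP90 beyond CDH3 at 2.28 (limma adjusted p = 0.25) and TANGO6 beyond CDH1 at −0.39 (adjusted p = 0.41) at 0 min. On both sides of CDH2 the neighbours were lower in RBMS3 cells at all 4 times, where CDH2 was higher. KCTD1 was at −0.97 at 0 min (limma adjusted p = 0.020), and DSC3, the desmosomal cadherin desmocollin 3, at −1.22. Beside CDH4, PPP1R3D was lower at 0 and 90 min (−2.06 and −2.50, limma adjusted p = 0.033 and 0.013) and TAF4 was not called. Beside CDH11, GOT2 was lower at 180 min alone (−0.28, limma adjusted p = 0.0072) and TK2 was not called. Beside CDH13, MPHOSPH6 was lower at 0 min alone (−1.08, limma adjusted p = 0.0033) and RN7SL134P was not called.

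The gene lists from here on were chosen with earlier results of these data known, so their counts are no independent test. Of 8 tested catenins and actin links, 4 were lower and 0 higher in RBMS3 cells at 0 min by limma, against 18.9% and 18.6% of all genes. Their median log2 difference was −0.37 against 0.01 for all genes. At 360 min 5 were lower and 1 higher, against 17.7% and 17.5%. On reads edgeR called 4 of 10 lower and 2 higher at 0 min, and 5 lower and 2 higher at 360 min. CTNNA1, α-catenin, moved with the source of the values, at −0.52 at 360 min on the table (limma adjusted p = 0.011) and −0.12 on reads (edgeR adjusted p = 0.15). JUP, plakoglobin, which serves adherens junctions and desmosomes, had 747 ± 358 (SD, n = 3) normalized counts in LacZ and 59.1 ± 16.0 in RBMS3 cells at 0 min, a difference of −3.52 (limma adjusted p = 5.5e-07). At 360 min JUP was at 968 ± 46.1 against 22.8 ± 2.46, a difference of −5.35. AFDN, the afadin that ties nectins to actin, was at 763 ± 96.1 against 361 ± 35.0 at 0 min. CTNNB1, β-catenin, was not called at any time by limma and lay between −0.26 and 0.10, and on reads it was lower at 90 min (−0.27, edgeR adjusted p = 0.024). CTNND1, p120 catenin, was at −0.06 at 0 min (adjusted p = 0.74) and was lower at 360 min (−0.56, adjusted p = 9.3e-04).

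Desmosome genes were lower in RBMS3 cells, 8 of 9 at 0 min with a median of −1.29, and 8 of 9 at 360 min with a median of −1.52, against medians of 0.01 and −0.02 and lower calls in 18.9% and 17.7% of all genes by limma. By edgeR on reads 8 of 9 were lower at each of these times. DSG3, desmoglein 3, was at 74.4 ± 20.2 (SD, n = 3) normalized counts in LacZ and 10.9 ± 10.3 in RBMS3 cells at 0 min (−3.48 by limma, −2.83 on reads by edgeR). PERP, a desmosome protein of stratified epithelium, was at 1763 ± 489 against 195.9 ± 27.5, and DSC2, desmocollin 2, at 319 ± 50.9 against 38.3 ± 9.69. PKP1, plakophilin 1, named here after its values were seen, was the exception. It was lower at 0 min (−0.23, limma adjusted p = 0.025) and higher at 90, 180 and 360 min (0.41, 0.51 and 0.53). Its slope differed between the lines by 0.11 per hour (limma adjusted p = 7.1e-04).

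Of the 17 other cadherins on the list only CDH18 and CDH24 had a mean of at least 10. CDH18 was at 8.83 or less in each LacZ group and passed this minimum through RBMS3 cells. CDH18, a cadherin best known from the nervous system, was higher in RBMS3 cells, with 1.27 ± 2.20 (SD, n = 3) against 112 ± 66.9 normalized counts at 0 min and a limma difference of 5.80 (adjusted p = 6.4e-05), on reads 5.01 by edgeR (adjusted p = 2.0e-05). CDH24 was not called (0.02). Of 4 tested protocadherins outside the gene clusters, PCDH7 was higher at 0 min (218 ± 8.28 against 742 ± 78.4) and PCDH1 lower (683 ± 25.1 against 12.8 ± 7.28, limma difference −5.76, adjusted p = 1.2e-12). PCDH9 was higher at 0, 90 and 180 min by limma and not called at 360 min (0.69, adjusted p = 0.53). PCDH11X was called by limma at 90 min alone, where it was higher (2.90, adjusted p = 0.035). On reads edgeR made no call for it there (2.14, adjusted p = 0.11). PCDH1, an epithelial protocadherin, was at 66.4 ± 16.8 in RBMS3 cells at 360 min, and its slope differed between the lines by 0.31 per hour (limma adjusted p = 0.0051). Among the nectins, NECTIN3 was higher at 0 min (64.2 ± 16.8 against 234 ± 48.6) and NECTIN1 lower (381 ± 39.1 against 207 ± 36.6).

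**Figure D4:**
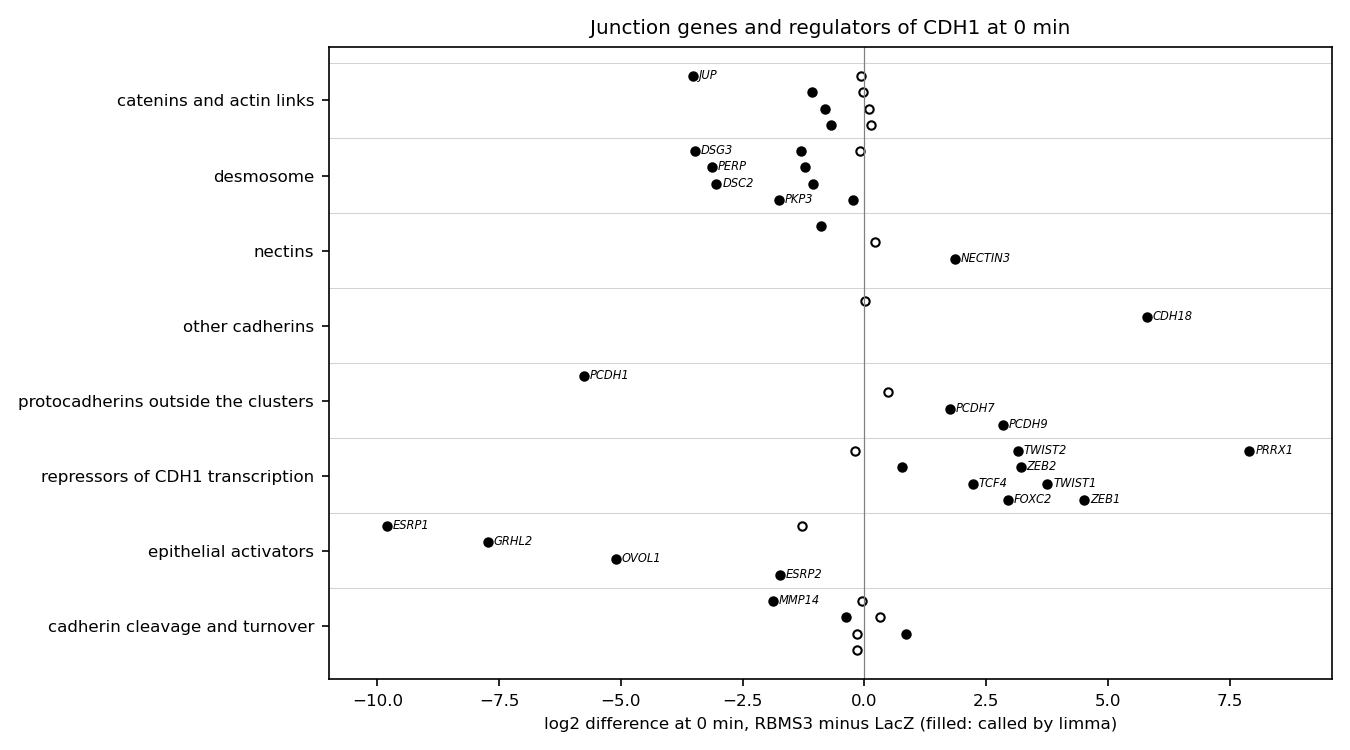
Log2 difference at 0 min (RBMS3 minus LacZ, x axis) for the tested genes of 8 lists (rows), each point a gene, filled where limma made a call. The genes listed as repressors of CDH1 transcription lie right of 0 except SNAI2 (−0.18), and the epithelial activators and the desmosome genes lie left of 0. For ESRP1 and GRHL2, with no read in RBMS3 cells, the point is the fitted value and no bound.

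Transcription factors listed as repressors of CDH1 were higher in RBMS3 cells, 8 of 9 tested at each of the 4 times. Their medians were 3.15, 2.98, 2.71 and 2.94. The list of 12 genes was chosen with earlier results of these data known, so its counts are no independent test. PRRX1 was at 2.21 or less in each LacZ group and passed the minimum mean through RBMS3 cells. Whether PRRX1, FOXC2 or the others act on CDH1 was not tested. Among all genes 18.6%, 14.9%, 16.2% and 17.5% were called higher by limma. On reads edgeR called 8, 7, 8 and 8, with TCF3 at 0.27 at 90 min (adjusted p = 0.059) against 0.44 on the table. PRRX1, a homeobox factor of mesenchymal cells, had no read in LacZ cells at 360 min and was at 541.5 ± 51.6 (SD, n = 3) normalized counts in RBMS3 cells, at least 167.7-fold higher against the floor of 3 reads in each library. At the same time ZEB1, which binds the CDH1 promoter, was at 17.7 ± 13.3 against 404.6 ± 6.83, and TWIST1 at 17.2 ± 3.06 against 239.5 ± 30.4 (3.73 by limma, 2.72 on reads by edgeR). SNAI2 was not called at any time. For none of the 9 did the slope differ between the lines by limma. Factors listed as keeping the epithelial program, chosen in the same way, were lower, 4 of 5 tested at 0 min and 5 of 5 later by limma. Among all genes 18.9%, 15.0%, 16.8% and 17.7% were lower. GRHL2, OVOL1 and ESRP1 were at 1.73 or less in each RBMS3 group and passed the minimum mean through LacZ cells. By edgeR on reads 6, 5, 6 and 5 of 7 were lower. GRHL1 lost its call there at 90 and 360 min (adjusted p = 0.11 and 0.066). ESRP1, a splicing regulator of epithelial transcripts, was at least 312-fold lower in RBMS3 cells at 0 min against the floor of 3 reads in each library. GRHL2, which activates CDH1, was at 248 ± 179.7 at 0 min in LacZ and had no read in RBMS3 cells, at least 57.2-fold lower against the same floor. OVOL1, a repressor of mesenchymal genes, was at 75.5 ± 11.9 against 1.73 ± 2.13, and ESRP2, an epithelial splicing regulator, at 168 ± 36.2 against 50.1 ± 12.1.

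Of 7 proteases and turnover factors that act on cadherins, 2 were lower and 1 higher at 0 min by limma, with a median of −0.15. These 3 of 7 are near the 37.5% of all genes called. MMP14, a membrane metalloprotease, was at 2825 ± 524 (SD, n = 3) normalized counts in LacZ and 772 ± 141 in RBMS3 cells and was lower at all 4 times. ADAM15 was lower at 0 min (−0.39, limma adjusted p = 0.024) and higher at 360 min (0.43, limma adjusted p = 0.015). It was not called at 90 or 180 min. ADAM10, the sheddase of E- and N-cadherin, was called higher at 0 min on the table (0.85, limma adjusted p = 6.8e-04), and on reads edgeR gave 0.61 (adjusted p = 0.20).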

How the data were processed

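The deposited table holds a normalized signal per gene for 24 libraries, made by the authors from Salmon output with DESeq2 size factors and mean transcript lengths, as the values show. The authors also deposited estimated counts and TPM per transcript. The TPM values were not tested. The submitters' processing notes name Salmon 1.4.0, DESeq2 1.32.0 and, for trimming, Trim Galore 0.6.6. A genome build was not given in the sources used here. Of 9885 genes, 95.1% of table values were reproduced within 0.001 log2 by reads divided by length and size factor, and 17.5% without the length.

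Samples were grouped by the labels. limma 3.58.1 (R 4.3.3, trend on) was fitted to log2(normalized count + 1) with 8 group means over 12096 genes with a mean of at least 10, and Benjamini-Hochberg adjusted p under 0.05 made a call. The signal was tested this way because it is not a count. edgeR 4.0.16 (quasi-likelihood, TMM) was run on estimated counts of the 12 libraries whose file names match their samples, rounded to whole numbers, and, chosen after seeing the data, on all 24. DESeq2 1.42.0 was an alternative. Scripts were tested on simulated data. Transcripts were matched to GENCODE 29 by identifier, 88.4% of 231288, holding 95.1% to 95.7% of reads. The lowest library had 4426445 reads.

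The members and gene lists were chosen with earlier results of these data known. Named genes are the members, the 5 genes most like each by Pearson r among genes with a mean of at least 50, up to 4 called genes of each list with the largest difference, provided that the line with the higher level had a mean of 50 or more, and each member's nearest tested neighbours. One gene that this rule names for CDH1 is not reported here.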

Additional observations from a re-analysis of the deposited data

Results flagged for a closer look

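For 3 cadherins a test of the difference itself found that the change over time in actinomycin D was unlike in the 2 lines, as log2 change per hour in RBMS3 minus that in LacZ cells by limma. CDH2 had a difference of 0.096, CDH4 of 0.18 and CDH3 of −0.65 (adjusted p = 0.0037, 8.7e-04 and 0.018). The first 2 were higher, and the last lower, in RBMS3 cells. From 0 to 90 min the RBMS3 changes of CDH2, CDH4 and CDH3 were 0.69, 1.07 and −4.74, and the LacZ changes −0.09, −0.08 and −0.07. From 90 to 360 min they were 0.19, 0.40 and 0.01 in RBMS3 cells and 0.21, 0.27 and 0.37 in LacZ cells. Whether the lines differed from 90 min on was not tested. The CDH3 result is the least secure, as RBMS3 libraries held 1 to 9.41 CDH3 reads after 0 min. Short mean lengths of 717 to 1131 bases also raised its RBMS3 values at 0 min. On reads its difference was −0.38 by edgeR (adjusted p = 0.0062). Its limma call was lost without 1 of the 24 libraries and with quantile normalization.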

How the results depend on the processing

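Replicate numbers did not pair the libraries: deviations from group means correlated at −0.111 to 0.116 between same-numbered libraries. With the number as a replicate block, the cadherins called were 5, 4, 5 and 4 between the lines, 0, 0 and 0 over time in LacZ cells, 3, 5 and 4 in RBMS3 cells, 3 by slope and 1 between 90 and 360 min, as without it. Over single cadherins and alternatives, 1950 results kept direction and call, 34 lost a call, 24 gained one and 30 changed sign.

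Scaling to 82 ribosomal protein genes moved the median of all genes by −0.34, −0.12, −0.17 and −0.20 in the line comparisons and by −0.23, −0.34 and −0.52 over time in LacZ cells, where it called 1, 1 and 2 cadherins (quantile normalization 1 at 360 min). It put CDH13 between the lines at −0.156 at 0 min and −0.024 at 360 min, CDH11 at −0.063 at 180 min, CDH2 in LacZ cells at −0.22 and −0.44 at 180 and 360 min, CDH4 there at −0.37 at 360 min and the CDH13 slope difference at 0.0039. CDH2 and CDH4 were still called higher in RBMS3 cells over time. Quantile normalization put CDH4 in LacZ cells at 0.0011 at 90 min and lost the CDH3 slope call (−0.47, adjusted p = 0.075), and equal totals put CDH2 at −0.064 at 360 min.

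On reads by edgeR and without the length factor, CDH11 between the lines was at 0.10 and 0.13 at 90 min and −0.039 and −0.080 at 360 min, and the CDH13 slope difference at 0.032 and 0.023. Leaving out libraries gave 0 to 1 cadherins in LacZ cells at 360 min, 3 to 5 in RBMS3 cells at 180 min (3 with only the groups compared) and 0 to 1 between 90 and 360 min (0 with no filter). It gave CDH11 between the lines −0.17 to 0.31 at 180 min and −0.19 to 0.58 at 360 min, and in LacZ cells at 90 min CDH2 −0.17 to 0.00080 and CDH4 −0.18 to 0.064. CDH1 in RBMS3 cells at 90 min ran from −1.69 to 0.49, the CDH13 slope difference from −0.035 to 0.0099, and CDH3 and CDH11 between 90 and 360 min from −0.82 to 1.07 and −0.094 to 0.19. The cause was not tested.

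Genes called in all moved by more than 1.5 times in LacZ cells at 90 min (747) to 1233 with ribosomal scaling, 87 with only the groups compared, 1161 without replicate 1 at 0 min, 392 and 415 without replicates 1 and 3 at 90 min, 1160 on reads and 1128 without the length factor. The first 2 of these gave 2727 and 387 at 180 min (1769), and the second 1419 at 360 min (3442). Reads gave 2930 in RBMS3 cells at 90 min (1756), and reads and no length factor 1031 and 1010 slopes (626). Between 90 and 360 min (1916) the count was 3053 without LacZ replicate 2 at 0 min, 1197 without RBMS3 replicate 2 at 90 min, and 1183 and 1276 without replicates 1 and 2 at 360 min. Depth limits CDH1 and CDH3 in RBMS3 cells and CDH11 throughout.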

Other observations

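The balance of genes called higher and lower moved with the scaling. With ribosomal protein scaling the line comparisons went from 2250 higher and 2284 lower to 1257 and 4069 at 0 min, from 1797 and 1809 to 1478 and 2239 at 90 min, from 1961 and 2038 to 1424 and 2750 at 180 min, and from 2118 and 2141 to 1440 and 3001 at 360 min. In LacZ cells over time they went from 416 and 331 to 92 and 1141, from 938 and 831 to 100 and 2627, and from 1800 and 1642 to 124 and 4885. In RBMS3 cells they went from 1629 and 1503 to 846 and 2095 at 180 min and from 2308 and 2244 to 718 and 3931 at 360 min, and for slopes from 355 and 271 to 573 and 204. Equal totals gave 287 higher and 396 lower, 409 and 1086, and 845 and 2219 in LacZ cells. In RBMS3 cells they gave 1109 and 1890 at 180 min and 1307 and 2991 at 360 min. CDH2 and CDH4 stayed higher and CDH1 and CDH3 lower in RBMS3 cells at each time under both scalings.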
